A study of Mus musculus with 7 samples.

Results

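The liver genes of the growth hormone and Igf1 axis were followed in 3 livers of C3ar1 knockout mice and 4 livers of wild-type littermates. The 10 members, Igf1, Igfals, Igfbp1, Igfbp2, Igfbp3, Igfbp4, Ghr, Socs2, Cish and Stat5b, were taken by gene symbol from the annotation of the probes. All 10 were measured, by 11 of the 23574 probes on the array, out of 16462 distinct gene symbols. Socs2 had 2 probes, 1 designed on its RefSeq transcript and 1 on an expressed sequence tag (EST), and each other gene had 1.

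C3ar1 encodes the receptor for the complement fragment C3a. All mice were fed chow. The knockouts carry C3ar1 (-/-), and their livers are numbered 2 to 4 as in the labels; the wild-type livers are numbered 1 to 4. Strain, sex, age, feeding state at collection and the form of the deleted allele are not given in the sources used here. Each 2-colour array compared 1 liver with pooled RNA of 6 wild-type livers, and the deposited value is a log ratio, read here as log10 of liver over pool. That direction was taken because titles name the pool before the mouse and the mouse's position matches channel 2, but no source states it, and all signs below would flip with it. The series' design text names a dye swap, and whether single arrays run the other way was not tested. The lowest correlation between arrays was -0.250. The base is assumed as well: each fold change printed is in base 10. A log ratio to a pool gives no level, so genes are not ranked by abundance.

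Pituitary growth hormone acts on hepatocytes through its receptor, Ghr, and the transcription factor Stat5b, which turns on Igf1, the gene of the main circulating growth factor, together with the feedback inhibitors Socs2 and Cish. Most circulating Igf1 protein travels in a complex with Igfbp3 and the acid-labile subunit, the product of Igfals. Igfbp1, Igfbp2 and Igfbp4 encode smaller carriers made in liver, and Igfbp1 is known for its fast response to feeding, insulin and stress hormones. In rodents the pattern of growth hormone pulses also sets which liver genes are male-biased or female-biased.

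Promoter windows from RefSeq (GRCm38.p6, 250 bases before to 50 after a gene start) were available for 9 members in 14 windows, and none was found for Socs2. The windows of Cish and Igfals are shown because they hold the letters TTCNNNGAA, the consensus of Stat5 sites, and that of Igfbp1 because it holds CAAAACA, the core of an insulin response element described for this gene in human and rat. Cish lies at chr9:107296409-107296708 on the plus strand, the Igfals window at chr17:24877981-24878280 on the plus strand and Igfbp1 at chr11:7197537-7197836 on the plus strand. Capitals mark the motifs.
Cish: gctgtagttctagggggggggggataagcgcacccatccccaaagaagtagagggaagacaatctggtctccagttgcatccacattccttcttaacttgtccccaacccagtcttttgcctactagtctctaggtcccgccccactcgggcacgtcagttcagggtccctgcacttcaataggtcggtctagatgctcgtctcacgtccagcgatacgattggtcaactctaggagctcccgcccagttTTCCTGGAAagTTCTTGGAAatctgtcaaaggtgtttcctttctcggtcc
Igfals: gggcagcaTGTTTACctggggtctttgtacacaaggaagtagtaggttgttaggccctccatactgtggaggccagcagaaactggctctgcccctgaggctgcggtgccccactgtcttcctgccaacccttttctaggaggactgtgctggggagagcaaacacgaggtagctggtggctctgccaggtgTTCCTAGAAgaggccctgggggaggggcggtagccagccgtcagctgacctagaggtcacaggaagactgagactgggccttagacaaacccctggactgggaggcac
Igfbp1: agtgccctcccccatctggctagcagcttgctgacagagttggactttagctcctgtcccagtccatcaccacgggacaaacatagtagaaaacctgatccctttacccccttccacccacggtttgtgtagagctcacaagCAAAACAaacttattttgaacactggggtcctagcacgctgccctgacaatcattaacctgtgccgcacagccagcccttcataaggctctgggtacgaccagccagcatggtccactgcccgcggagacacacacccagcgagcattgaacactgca

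Cish held TTCNNNGAA at 2 places, from 1 to 9 and from 12 to 20 bases after the start. At least 2 matches were present in 0.457% of the 32851 mouse windows of 300 bases, and at least 1 in 8.3%. Igfals held it from -58 to -50 in the window shown, and from -236 to -228 in another of its windows. The capitals near the left end of the Igfals window are a match, on the minus strand, to the forkhead motif GTAAACA, which 3.65% of windows hold. CAAAACA stood from -108 to -102 in Igfbp1 and in 6.28% of all windows. All motifs were searched on both strands, TTCNNNGAA reads the same on both, and no 2 matches overlapped. The windows of Igf1, Igfbp2, Igfbp3, Igfbp4, Ghr and Stat5b held none of these letters.

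No member differed between the genotypes past the test. Of the 11 probes, 0 were called by limma at an adjusted p under 0.05, against 0.00424% of all probes, with adjusted p values from 0.884 to 0.929. At an unadjusted p under 0.05 lay 2 member probes, those of Igfbp2 and the EST probe of Socs2, both higher in the knockouts, where 1.86% of all probes were higher, 2.61% lower and 4.47% in either direction at that level. The genotypes did not overlap in 3 of 11 probes, or 27.3%, against 5.26% of all probes. These were Igfbp2 and the Socs2 EST probe, higher in the knockouts (2.71% of all probes), and Igfbp3, lower (2.54% of all probes). Igfbp3 had an unadjusted p of 0.213 (limma). With the probes of a gene averaged, 2 of 10 members did not overlap, against 5.38% of all genes. Members were chosen with earlier results of these data known, so the contrast of the shares carries no test. The median difference was 0.0192 over the members and 0.00555 over all probes on the log10 scale, and the median absolute difference was 0.0538, against 0.0221 over all probes. With 3 and 4 mice the number of arrays limits the precision, and p-values measure only the spread between these mice.

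**Figure D1:**
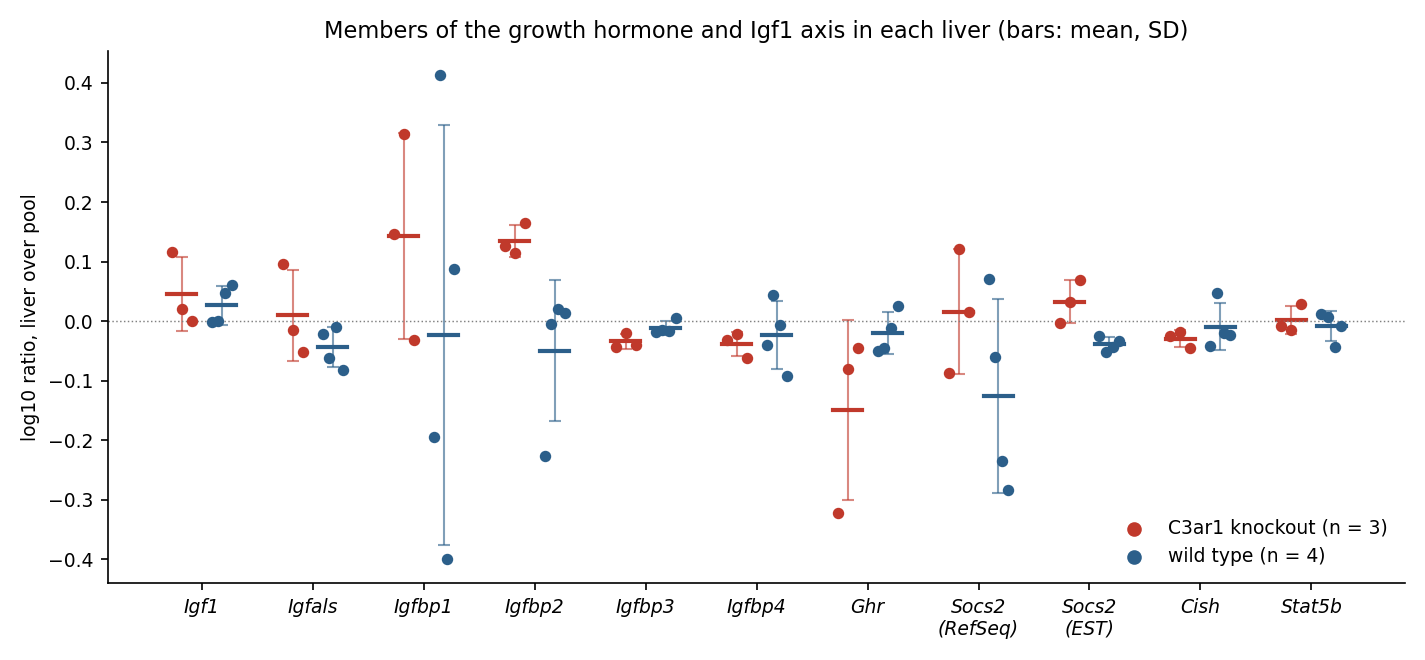
Log10 ratio of liver over pool for the 11 member probes in 3 C3ar1 knockout livers (red, left of each pair) and 4 wild-type livers (blue, right); points are livers, thick bars the mean and thin bars the SD. Igfbp1 spans 0.413 to -0.399 in the wild types alone, while the knockout points of Igfbp2 lie above all 4 wild-type points.

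The growth factor itself was read first. Igf1 stood at 0.116, 0.0206 and 0.0005 in knockout livers 2, 3 and 4, against -0.0023, -0.0001, 0.0478 and 0.0609 in wild-type livers 1 to 4. Knockout liver 2 was above every other liver and the remaining values of the genotypes were interleaved. The difference was 0.0192 ± 0.0324 (SE), a ratio of 1.05 whose 95% interval ran from 0.879 to 1.24 (limma, adjusted p = 0.915). Without knockout liver 2 it turned to -0.0160.

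Igfals, whose product holds Igf1 in the long-lived complex, stood at 0.0959, -0.0145 and -0.0510 in knockout livers 2 to 4 and at -0.0214, -0.0613, -0.0098 and -0.0823 in wild-type livers 1 to 4. Again knockout liver 2 was highest, and the other knockouts lay within the wild-type range. Knockouts averaged 0.0101 ± 0.0765 and wild types -0.0437 ± 0.0339 (SD, n = 3 and 4; limma, adjusted p = 0.884). Without knockout liver 2 the difference of 0.0538 was 0.0109. On that array the values of all probes had an SD of 0.0975, against 0.0466 to 0.0676 on the others. After scale normalization the differences were 0.00426 for Igf1 and 0.0402 for Igfals. After quantile normalization they were 0.000437 and 0.0464. The part of the wide spread on that array was not tested further.

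Igfbp3, the main carrier in the complex, gave -0.0427, -0.0197 and -0.0394 in knockout livers 2 to 4, against -0.0187, -0.0155, -0.0168 and 0.0055 in wild-type livers 1 to 4. All knockouts lay below all wild types, but knockout liver 3 and wild-type liver 1 nearly met. The means were -0.0339 ± 0.0124 and -0.0114 ± 0.0113 (knockout and wild type, SD), a ratio of 0.949 (interval 0.869 to 1.04; limma, adjusted p = 0.884). After scale normalization the genotypes overlapped in Igfbp3. In rat liver Igfbp3 is made by cells other than hepatocytes, so markers of such cells are given beside it. Endothelial markers stood higher in the knockouts in 17 of 21 probes, with list means of -0.0216 to 0.0513 in knockout livers and -0.0727 to 0.0215 in wild-type livers, and macrophage and Kupffer cell markers in 17 of 20 probes, with -0.137 to 0.0811 in knockout livers and -0.208 to -0.0562 in wild-type livers. The macrophage median of 0.0360 turned to -0.0251 without knockout liver 4 and was 0.0049 without wild-type liver 3, and the endothelial median of 0.0350 was 0.0182 without wild-type liver 2. The share of all probes standing higher was not counted, and the part of these cells in the value of Igfbp3 was not tested. In whole liver, fewer cells of a type and less RNA per cell cannot be told apart.

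Ghr, the growth hormone receptor, gave -0.323, -0.0812 and -0.0451 in knockout livers 2 to 4 and -0.0502, -0.0447, -0.0110 and 0.0258 in wild-type livers 1 to 4. Knockout liver 2 stood far below all others, and knockout liver 4 fell between wild-type livers 1 and 2. The difference of -0.130 ± 0.0632 (SE), a ratio of 0.742 with an interval from 0.529 to 1.04, did not pass (limma, adjusted p = 0.884), and without knockout liver 2 it was -0.0431. With all livers it was -0.0827 after scale normalization and -0.0852 after quantile normalization. Leaving out either knockout liver 4 or wild-type liver 1 removed the overlap, while the share of all probes without overlap became 12.3% and 7.05%. Stat5b, the transcription factor below the receptor, varied little, at -0.0086, -0.0141 and 0.0281 in knockout livers 2 to 4 and 0.0114, 0.0067, -0.0429 and -0.0075 in wild-type livers 1 to 4. Its difference of 0.00987 ± 0.0210 (SE) left the ratio between 0.914 and 1.14 (limma, adjusted p = 0.929).

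**Figure D2:**
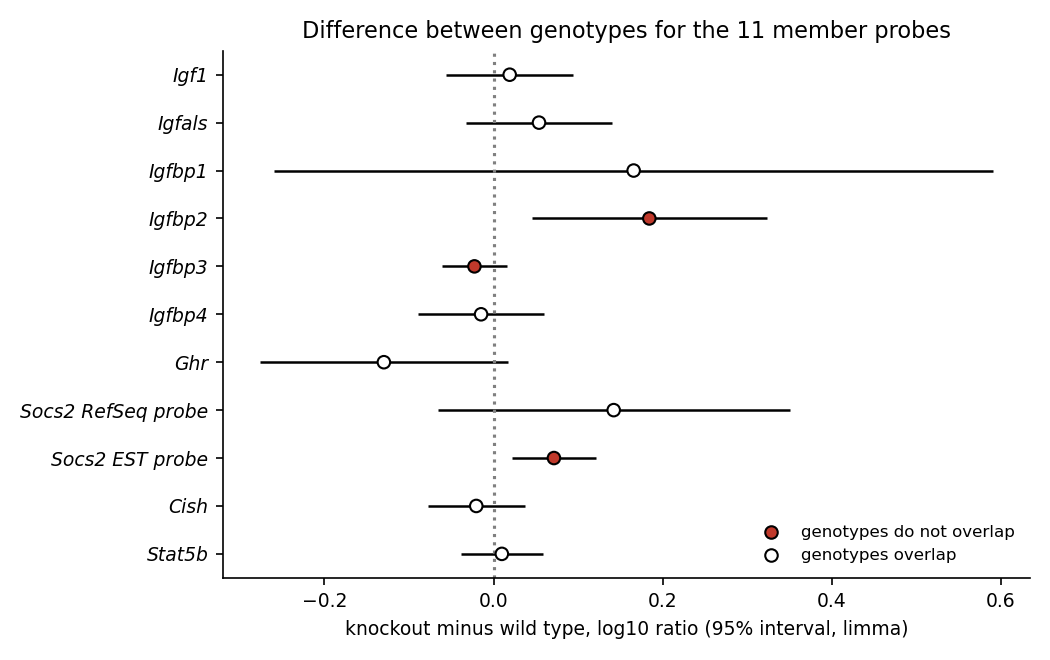
Difference between the genotype means (knockout minus wild type, log10 ratio) for the 11 member probes, with 95% intervals from limma; filled points mark the 3 probes whose genotypes do not overlap. The interval of Igfbp1 runs from -0.259 to 0.591, and those of Igfbp2 and the Socs2 EST probe lie above 0 before adjustment.

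Socs2 encodes a suppressor of growth hormone signalling that is itself induced by the hormone, and its probes differed in their spread. The EST probe gave -0.0036, 0.0327 and 0.0695 in knockout livers 2 to 4, against -0.0257, -0.0523, -0.0433 and -0.0332 in wild-type livers 1 to 4, so all 3 knockouts lay above all 4 wild types. Its difference was 0.0715 ± 0.0214 (SE), 1.18-fold, with an interval from 1.05 to 1.32 and an unadjusted p of 0.0110 (limma, adjusted p = 0.884). The RefSeq probe gave -0.0878, 0.121 and 0.0148 in knockout livers 2 to 4 and 0.0715, -0.0594, -0.234 and -0.283 in wild-type livers 1 to 4. Here the genotypes overlapped, since wild-type liver 1 stood above knockout livers 2 and 4, and the lowest values were those of wild-type livers 3 and 4. Its difference of 0.142 ± 0.0894 (SE) had the same sign and was larger, and the interval of its ratio ran from 0.859 to 2.24 (limma, adjusted p = 0.884). Without knockout liver 3 or wild-type liver 4 that difference was 0.0897 or 0.0900. The averaged probes overlapped between the genotypes.

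Cish, the other feedback inhibitor, stood at -0.0256, -0.0178 and -0.0456 in knockout livers 2 to 4 and at -0.0419, 0.0475, -0.0201 and -0.0226 in wild-type livers 1 to 4, where wild-type liver 2 was highest and the rest were mixed. The difference of -0.0204 ± 0.0246 (SE) corresponded to a ratio of 0.954, from 0.836 to 1.09 (limma, adjusted p = 0.890), and was -0.00147 without wild-type liver 2.

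Igfbp1 varied more between livers than any other member. It stood at 0.146, 0.314 and -0.0320 in knockout livers 2 to 4, against -0.194, 0.413, -0.399 and 0.0876 in wild-type livers 1 to 4. The highest and the lowest of all 7 livers were both wild types, 6.50-fold apart, and the knockouts, 2.22-fold apart, lay between them. The knockout mean was 0.143 ± 0.173 and the wild-type mean -0.0232 ± 0.353 (SD), and the interval of the ratio, 1.46, ran from 0.550 to 3.90 (limma, adjusted p = 0.886). Without wild-type liver 3 or 2 the difference of 0.166 was 0.0404 or 0.311.

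Igfbp2, a carrier that in rodent liver is raised by fasting, gave 0.126, 0.114 and 0.165 in knockout livers 2 to 4, against -0.227, -0.0047, 0.0203 and 0.0136 in wild-type livers 1 to 4. All knockouts stood above all wild types, and wild-type liver 1 lay far below the other 3. The knockout livers were close together, within 1.12-fold. Knockouts averaged 0.135 ± 0.0268 and wild types -0.0494 ± 0.119 (SD), 1.53-fold apart with an interval from 1.11 to 2.11 and an unadjusted p of 0.0159 (limma, adjusted p = 0.884). Without wild-type liver 1 the difference of 0.184 was 0.125, and the genotypes still did not overlap.

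Igfbp4, an inhibitory carrier, gave -0.0312, -0.0220 and -0.0616 in knockout livers 2 to 4, against -0.0399, 0.0433, -0.0057 and -0.0920 in wild-type livers 1 to 4. The knockouts lay inside the wild-type range. The ratio was 0.967, from 0.814 to 1.15 (limma, adjusted p = 0.929).

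Members differed widely in how far livers of 1 genotype lay apart. The residual SD of the limma fit was 0.294 for Igfbp1, larger than in 99.8% of all probes. That of the Socs2 RefSeq probe was 0.142 (98.1st percentile), of Ghr 0.0993 (93.6th) and of Igfbp2 0.0935 (92.3rd). This SD pools the genotypes, whose own SDs were unlike in Ghr and Igfbp2, each with 1 far liver. No test of SDs was run. The SD of Ghr was 0.151 in knockouts, with liver 2 at -0.323, and 0.0351 in wild types. The SD of Igfbp2 was 0.0268 in knockouts and 0.119 in wild types, with liver 1 at -0.227. At the other end, Igfbp3 had 0.0118 (2.84th percentile), Stat5b 0.0239 (25.1st) and the Socs2 EST probe 0.0248 (27.1st). Igf1, Igfals, Igfbp4 and Cish lay between the 41.9th and 73.4th percentile. Over all probes the median was 0.0360, and 4 of 11 member probes were above the 90th percentile. Whether a narrow spread comes with a dim probe was not analysed here, since the table holds no signal.

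**Figure D3:**
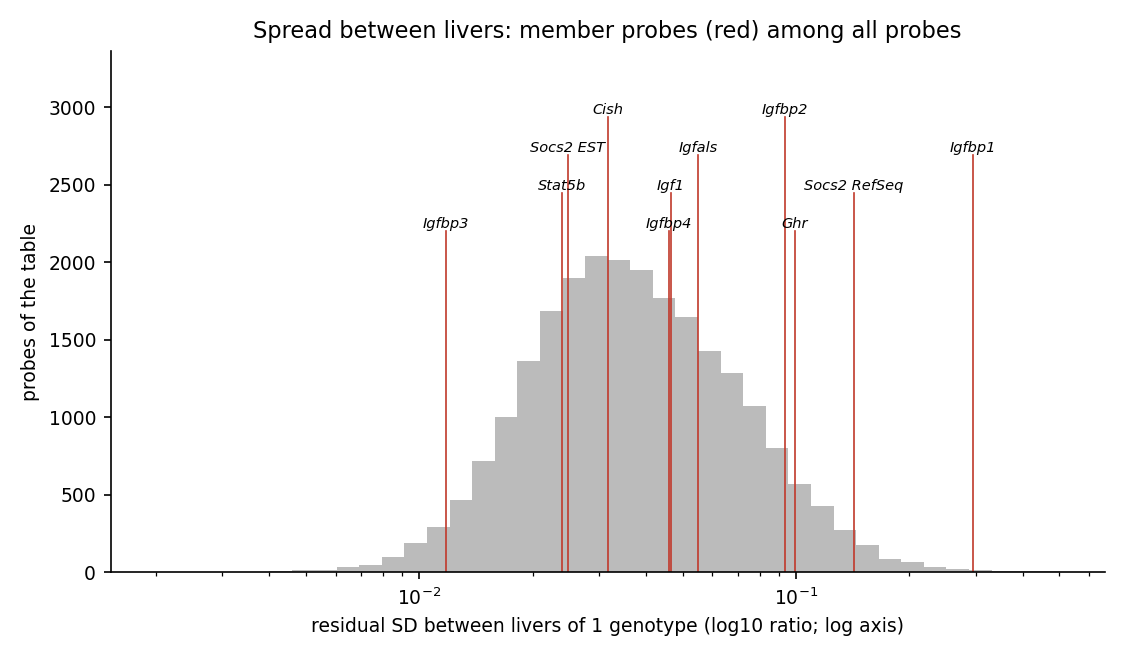
Histogram of the residual SD between livers of 1 genotype for all 23574 probes (log axis), with red lines at the 11 member probes. Igfbp1 lies in the right tail at 0.294 and Igfbp3 in the left tail at 0.0118.

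The genes with the profile most like that of Igfbp1 over the 7 livers were Tat, an enzyme of tyrosine breakdown (Pearson r = 0.961), Dusp1, a phosphatase of MAP kinases (0.940), Lpin1, a phosphatidate phosphatase (0.891), Errfi1, an inhibitor of the EGF receptor (0.887), and Retreg1, a receptor for autophagy of the endoplasmic reticulum (0.886). They were picked from 380 probes with enough variation, so the r values describe the choice and carry no test. Tat stood at 0.249, 0.407 and 0.0375 in knockout livers 2 to 4 and at -0.212, 0.398, -0.186 and 0.122 in wild-type livers 1 to 4. Lpin1 stood at 0.567, 0.611 and -0.183 in knockout livers 2 to 4 and at -0.241, 0.496, -0.305 and 0.0798 in wild-type livers 1 to 4. In these genes, as in Igfbp1, knockout liver 3 and wild-type liver 2 were high, and wild-type liver 3 was low. Leaving out knockout liver 2, an alternative chosen after seeing the data, gave r between 0.883 and 0.963 for the 5 genes.

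**Figure D4:**
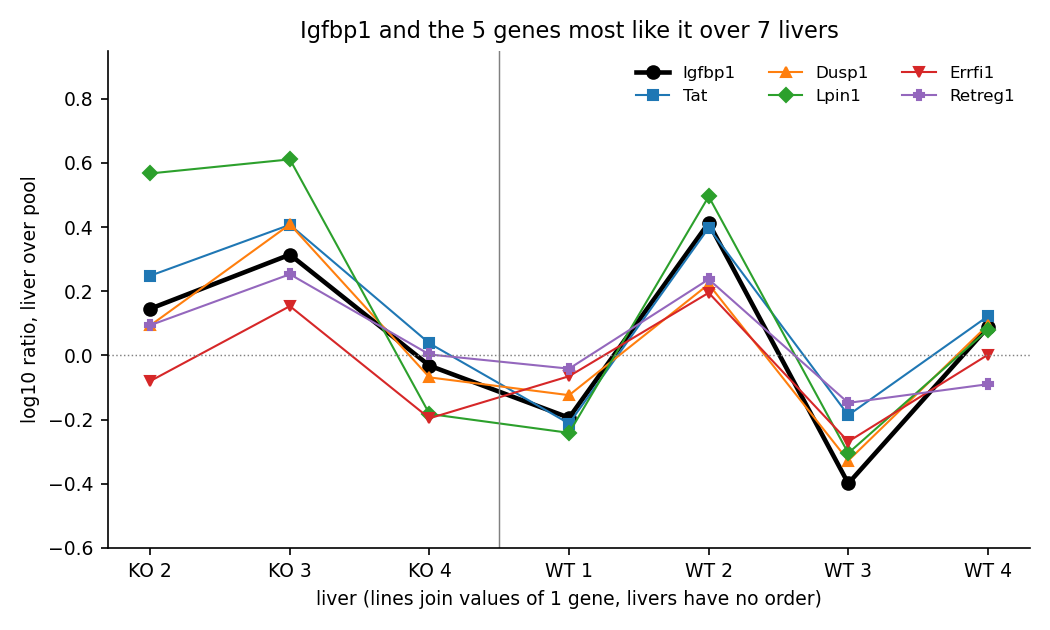
Log10 ratio of liver over pool for Igfbp1 (black) and the 5 genes most like it in the 3 knockout livers (left) and the 4 wild-type livers (right). Each gene is high in knockout liver 3 and wild-type liver 2, and low in wild-type liver 3, so the profile crosses the genotypes.

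Igf1 was most like Nup188, a nuclear pore gene (r = 0.997), Cideb, a lipid droplet gene (0.991), Cdk5r2, an activator of the kinase Cdk5 (0.989), the microtubule-associated Map7d3 (0.988) and Dennd2c, of a family that activates Rab GTPases (0.987), picked from 14092 probes. All of these were highest in knockout liver 2. Without it, r was 0.963 to 0.991. The genes were picked for a high r over the same livers, so none of these values carries a test.

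Pairs of members that act together were compared over the 7 livers, 7 pairs in all, and 0 passed in an exact permutation test of the pairings, two-sided. Igf1 and Igfals gave r = 0.686 (exact permutation p = 0.179, adjusted 0.534) and rho = 0.357 (exact permutation p = 0.444, adjusted 1.0), and r = 0.691 without knockout liver 2 and wild-type liver 4, the livers farthest from the median of Igf1. For Igf1 and Ghr r was -0.656 (exact permutation p = 0.271, adjusted 0.534) and rho 0.0 (exact permutation p = 1.0), and without the same livers r turned to 0.463, so its sign rested on them. Igfals and Igfbp3 gave r = -0.673 (exact permutation p = 0.102, adjusted 0.534) and rho = -0.679 (exact permutation p = 0.110, adjusted 0.767), which turned to r = 0.364 without these livers. Igf1 with Socs2 gave r = -0.472 and rho = -0.393 (exact permutation p = 0.305 and 0.396), r = -0.590 without these livers and r = -0.829 with genotype means removed. Igf1 with Igfbp3 gave r = -0.161 and rho = -0.143 (exact permutation p = 0.720 and 0.783), which turned to r = 0.333 without them and 0.0213 with genotype means removed. Socs2 with Cish gave r = -0.241 and rho = -0.250 (exact permutation p = 0.653 and 0.595), r = -0.423 without knockout liver 3 and wild-type liver 4, and r = -0.0215 with genotype means removed. Igfbp1 with Igfbp2 gave r = 0.335 and rho = 0.0357 (exact permutation p = 0.477 and 0.964), r = 0.677 without wild-type livers 2 and 3, and r = 0.158 with genotype means removed. Adjusted p values of these 4 pairs were 0.534 to 0.720 for r and 1.0 for rho. Each genotype holds too few livers for a value of its own.

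Other genes of growth hormone and Igf signalling were read from written lists. Of 26 probes for 23 genes of growth hormone receptor signalling, 0 were called, 15 were higher and 11 lower, with a median difference of 0.00872, or 0.0162 without knockout liver 3 and -0.00613 with the less variable probes removed. Grb2, an adaptor protein, differed by 0.0606, the phosphatase gene Ptpn1 by 0.0700 and the cytokine-induced inhibitor Socs3 by -0.0420 (limma, adjusted p = 0.884 for each). Among ligands, receptors and relays of Igf signalling, 0 of 19 probes were called and 14 were higher, with a median of 0.0286 that was 0.0107 without knockout liver 2. The kinase gene Akt1 differed by 0.0596, the receptor gene Igf1r by 0.0482 and Igf2r, which clears Igf2, by -0.0411. Of 16 probes for other Igf-binding proteins and their proteases, 0 were called and 10 were higher, with a median of 0.0136 that was 0.00303 without wild-type liver 1. Igfbp7, a related protein of blood vessel walls, stood at -0.0377, -0.0395 and 0.0371 in knockout livers 2 to 4 and at -0.0961, -0.120, -0.115 and -0.0442 in wild-type livers 1 to 4, without overlap and 0.0804 apart on average (limma, adjusted p = 0.884). Igfbp7 was the 1 probe of 16 without overlap, against 5.26% of all probes, and was named for its small p. The protease genes Htra3 and Adam9 differed by 0.158 and -0.0853.

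Liver genes that follow the growth hormone pulse pattern varied by liver within each genotype. Male-biased genes were higher in the knockouts in 24 of 30 probes with a median of 0.0366, and female-biased genes were lower in 28 of 37 with a median of -0.0535, where all probes had 0.00555; 0 were called in either list. The share of all probes standing higher or lower was not counted, and the genotypes overlapped in both list means. The medians moved with single livers: the male-biased one was 0.0049 once wild-type liver 1 was removed, and the female-biased one was -0.00327 without knockout liver 4. The male-biased list mean was -0.0580, -0.0434 and 0.0426 in knockout livers 2 to 4 and -0.182, -0.0993, 0.0435 and -0.0657 in wild-type livers 1 to 4. Knockout liver 4 and wild-type liver 3 were highest there, and the same livers had the lowest female-biased means, -0.203 and -0.0893, while the other livers had -0.0083 to 0.0754. Elovl3, a fatty acid elongase, differed by 0.116, Egfr by 0.139 and Susd4 by 0.125. On the female-biased side, Hao2, a hydroxy acid oxidase, differed by -0.195, the fatty acid transporter gene Cd36 by -0.357 and the sulfotransferase gene Sult2a2 by -0.0374 (limma, adjusted p = 0.884 for all 6). The 6 measured genes of the sex chromosome list had 0 calls in 7 probes. The Y-linked Uty lay between -0.0345 and 0.0340 in all 7 livers and Kdm5d between -0.202 and -0.0242, and the X-linked Kdm6a differed by -0.0926, Eif2s3x by -0.0329, Ddx3x by -0.0305 and Kdm5c by 0.0113.

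**Figure D5:**
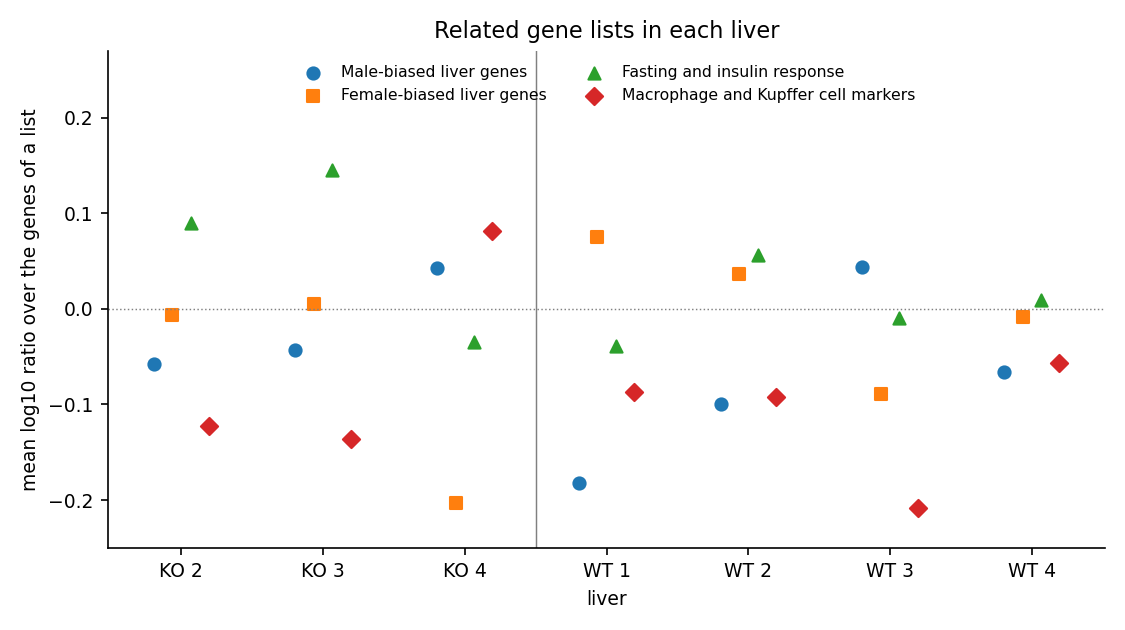
Mean log10 ratio over the genes of 4 related lists in each of 3 knockout livers (left) and 4 wild-type livers (right). Knockout liver 4 and wild-type liver 3 have the highest male-biased and the lowest female-biased means, and knockout liver 3 has the highest mean of fasting and insulin response genes, 0.146.

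Genes of the response to fasting and insulin were read beside Igfbp1 and Igfbp2. Of 21 probes, 0 were called, 15 were higher and 6 lower, with a median of 0.0424 that was 0.00205 without knockout liver 3 and 0.0709 without knockout liver 4. Atf4, a transcription factor of amino acid stress, stood at 0.0847, 0.0734 and 0.0895 in knockout livers 2 to 4 and at 0.0155, 0.0017, 0.0143 and 0.0011 in wild-type livers 1 to 4, 1.19-fold apart without overlap (limma, adjusted p = 0.884). Pck1, the gluconeogenic carboxykinase, differed by 0.134, and 1 of the 2 probes of the stress protein gene Sesn3 by -0.0905, with knockout liver 2 at -0.182. Atf4 and this Sesn3 probe were the 2 of 21 probes without overlap, against 5.26% of all probes. The 3 genes were named for the smallest p of the list. The other Sesn3 probe overlapped between the genotypes. It stood at 0.0064 to 0.0535 in knockout livers and at 0.0129 to 0.0538 in wild-type livers. The list mean was 0.0899, 0.146 and -0.0352 in the knockouts, against -0.0385, 0.0568, -0.0094 and 0.0094 in the wild types. Of its probes 3 of 21, or 14.3%, had r above 0.8 with Igfbp1, and 1.26% of all probes did. They were Tat, Lpin1 and Ppargc1a, a coactivator of gluconeogenic genes (r = 0.870). Pdk4, the pyruvate dehydrogenase kinase, had r = -0.949. The rest of the list ran from 0.780 for Tsc22d3 to -0.590 for the other Sesn3 probe. Among these, G6pc had 0.338, Pck1 0.262, Angptl4 0.115, Fgf21 -0.160 and Cpt1a -0.291. This count and the genes named with it were chosen after their values were seen. Tat and Lpin1 were already among the 5 genes picked for their likeness to Igfbp1. The share over all probes includes probes that vary little, so the contrast of the shares carries no test.

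Cell type markers and the targeted gene complete the account. Hepatocyte markers had list means of 0.0101 to 0.0523 in knockout livers and -0.0250 to 0.0494 in wild-type livers. Over all marker lists 0 probes were called. Probes standing higher in the knockouts were 13 of 16 for hepatocytes, 14 of 18 for stellate cells and fibroblasts, 3 of 7 for bile ducts, 10 of 12 for lymphocytes, 6 of 9 for neutrophils and 2 of 5 for blood cell RNA. The share of all probes standing higher was not counted, so these counts have no base to be read against. The median difference over all probes was 0.00555. The probe of C3ar1 differed by 0.0329 ± 0.0233 (SE; limma, adjusted p = 0.884), and since the deleted part is not given it checks no label.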

How the data were processed

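Each of 7 2-colour arrays compared 1 mouse liver with a pool from 6 wild-type mice. The authors deposited 1 log ratio per probe and array, taken here as log10. Scanner software, background correction and normalization are not given in the sources used here. Column medians lay between -0.0008 and 0.0139, and whether the values were centred before deposit is not stated. Per the labels, Cy3 was channel 1 and Cy5 channel 2, with a dye swap in the series' design text. Signal over background was not analysed here.

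Probes were named through the platform annotation, updated by Entrez number (17724) or accession (21) against the GRCm38.p6 gene table, and 79 kept their symbol. 17824 probes had 1 symbol, 50 had several and 5700 had none listed. All probes were fitted with limma 3.58.1 in R 4.3.3 (lmFit, eBayes; two-sided test of knockout minus wild type), adjusted by Benjamini-Hochberg over 23574 probes, with calls under 0.05. The common pool drops out of the difference if all arrays run in the same direction, which was not tested. No pair of arrays had over 0.119% identical values. The fit was tested on simulated data. The share it finds of changes as small as those of the members is not given here. Gene lists are described by counts and medians. Counts of higher and lower probes carry no test, since the matching share of all probes was not counted.

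Named genes were all members, the 3 genes of smallest p per list of signalling, sex-biased and fasting genes (all genes of the sex chromosome list), and the 5 genes most like Igf1 and like the member of widest range, with an SD at least that member's SD over 2. For cell type lists only counts are given. Members and lists were chosen with earlier results of these data known.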

Additional observations from a re-analysis of the deposited data

Results flagged for a closer look

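Of 26 sets of 4 wild-type values examined, those of 11 probes and 15 list means, 2 had a liver far from the others, where chance gives about 1 in 20. Igfbp2 in wild-type liver 1 was -0.227, and its gap to the nearest liver was 0.899 of the range. Igfbp3 in wild-type liver 4 was 0.0055, with a gap of 0.868 of the range. Groups of 3, as in the knockouts, were not examined in this way.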

How the results depend on the processing

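Under 16 alternatives, 0 member probes and 0 probes of the related lists were called, and the lowest adjusted p of a member was 0.692. Differences of Igfals, Igfbp1, Igfbp2, Igfbp3, Ghr, both Socs2 probes and Cish kept their sign in every alternative that could be fitted. That of Igf1 turned to -0.00188 with array weights and ranged from -0.0160 to 0.0418 when single livers were left out. Leaving out single livers gave -0.0375 to 0.0076 for Igfbp4 and -0.00327 to 0.0178 for Stat5b. Probes called over the whole table, 1 in the fit reported, were 0 after quantile normalization, scale normalization, in the ordinary test and with a replicate block, 4 after the filter on variation, and 0 to 3 when single livers were left out. The count of member probes without overlap was 2 to 4, while the share of all probes without overlap was 4.69% to 14.7%, highest without knockout liver 3. The replicate block left 0 member probes called. Its differences were the same as those without wild-type liver 1, which has no knockout liver of its number. Same-numbered livers did not pair: the correlations of their deviations from the group means were -0.137, -0.205 and -0.154. List medians were unstable: over the alternatives 14 of 15 moved by over 1.5 times in at least 1, and 7 turned sign in at least 1, namely those of growth hormone receptor signalling (-0.00613 after the filter on variation), sex chromosome transcripts, and macrophage, bile duct, lymphocyte, neutrophil and blood cell genes. When single livers were left out, the medians ranged from 0.0049 to 0.0726 for male-biased, -0.0866 to -0.00327 for female-biased and 0.00205 to 0.0709 for fasting genes. The filter on variation kept 8 of 11 member probes. Read as log2, Igfbp2 would be 1.14-fold apart, the Socs2 EST probe 1.05-fold and Igfbp3 1.02-fold.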
